A study of Mus musculus with 8 samples.

Results

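Endothelial leukocyte adhesion molecules are the surface proteins with which the lining of blood vessels slows, holds and lets through white blood cells, and their transcripts were measured here in whole mouse lung. The set held 9 genes: the selectins Sele and Selp, the selectin ligand gene Selplg, the immunoglobulin family members Icam1, Icam2 and Vcam1, and the junctional molecules Pecam1, Esam and Jam2. They were listed by symbol and matched to the Ensembl mouse identifiers of the count files. All 9 were found among 55416 identifiers, and all 9 passed the filter on low counts that left 18560 genes for testing.

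The study asked how YW3-56, an inhibitor of the protein arginine deiminases that citrullinate histones when neutrophils release extracellular traps, changes the response of mice to endotoxin. The mice were female, 6 to 8 weeks old, of strain C57BL/6 in the labels and C57BL/6J in the methods, and lung RNA was sequenced about 24 h after the injections. The 3 control mice received the solvent DMSO into a vein and normal saline into the peritoneum 30 min later. The 3 LPS mice received bacterial lipopolysaccharide (LPS) in saline at 35 mg/kg into the peritoneum. LPS is described as their only treatment and no DMSO is named for them, unlike the other groups. The 2 dual-treated mice received YW3-56 at 10 mg/kg in DMSO 30 min before the same dose of LPS. The labels number the control mice 1, 2 and 4, those given LPS alone 1, 6 and 7, and those given both agents 2 and 5, and these numbers are used as names below.

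Leukocytes leave the blood in steps. Selectins on activated endothelium bind carbohydrate ligands such as the product of Selplg and make the cells roll, after which integrins on the leukocyte bind ICAM and VCAM proteins and bring it to a stop. Molecules at the endothelial junctions, PECAM1, ESAM and JAM2 among them, then take part in the passage between endothelial cells, and in the lung much of this traffic runs through the capillaries around the air spaces.

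Total counts per library ran from 19061949 to 20908608. Levels are given as CPM, the counts per 1e6 counts of a library after scaling with the TMM factors of edgeR. A gene was called where edgeR's quasi-likelihood test, adjusted over the 18560 genes by the method of Benjamini and Hochberg (BH), gave an adjusted p under 0.05. Libraries of 1 group differed by more than sampling noise in all pairs, with a chi-square per degree of freedom of 8.76 to 13.4 among control mice, 27.5 to 44.2 among LPS mice and 45.2 between the dual-treated mice.

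Some libraries stood apart. LPS mice 6 and 7 held transcripts of squamous epithelium, with summed CPM of 695 and 1949 for 7 markers against 0.712 in LPS mouse 1 and 5.58 to 11.2 in control mice. The keratin gene Krt13, the most abundant of them by its mean over the 8 libraries, was at 286 CPM in LPS mouse 6 and 887 CPM in LPS mouse 7, and Krt4, Krt6a and Sprr3 had no count in LPS mouse 1. The same 2 mice held skeletal muscle transcripts, with summed CPM of 411 and 1091 for 6 markers against 16.8 in LPS mouse 1, and the actin gene Acta1, the most abundant in both, was at 210 and 600 CPM. In LPS against control mice, 6 of 7 squamous and 6 of 6 muscle markers were called higher. Between dual-treated and LPS mice 5 of 7 and 6 of 6 were called lower. In dual-treated against control mice neither list had a call in edgeR or DESeq2, and in edgeR no marker of either list reached an unadjusted p under 0.05. Among the members, the selectins differed most between both dual-treated mice, as described with those genes. Values of the members without LPS mice 6 and 7 are given beside the results, and the part of the squamous and muscle transcripts in the results was not tested.

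In LPS against control mice, 5 of the 9 adhesion genes were called higher, where 32.6% of all tested genes were, and 2 were called lower, where 33.9% were. The median log2 fold change was 1.13 over the 9 genes and -0.01 over all tested genes. Sele, Selp, Selplg, Icam1 and Vcam1 rose, Icam2 and Pecam1 fell, and Esam and Jam2 were not called. In dual-treated against LPS mice, 3 of 9 were called higher (31.7% of all tested genes) and 3 were called lower (27.4%), with medians of 0.29 and 0.06. These shares of the 9 genes lie near those of all tested genes. In dual-treated against control mice, 4 of 9 were called higher (9.13% of all tested genes) and none lower (7.02%), with medians of 0.63 and 0.00. The 3 comparisons share mice, so their values stand side by side and are not independent. Without LPS mice 6 and 7 a single LPS mouse is left, which is then taken to vary like the other groups. In that fit all 7 members called in LPS against control mice kept their call and direction, as did all 6 in dual-treated against LPS mice and all 4 in dual-treated against control mice.

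**Figure D1:**
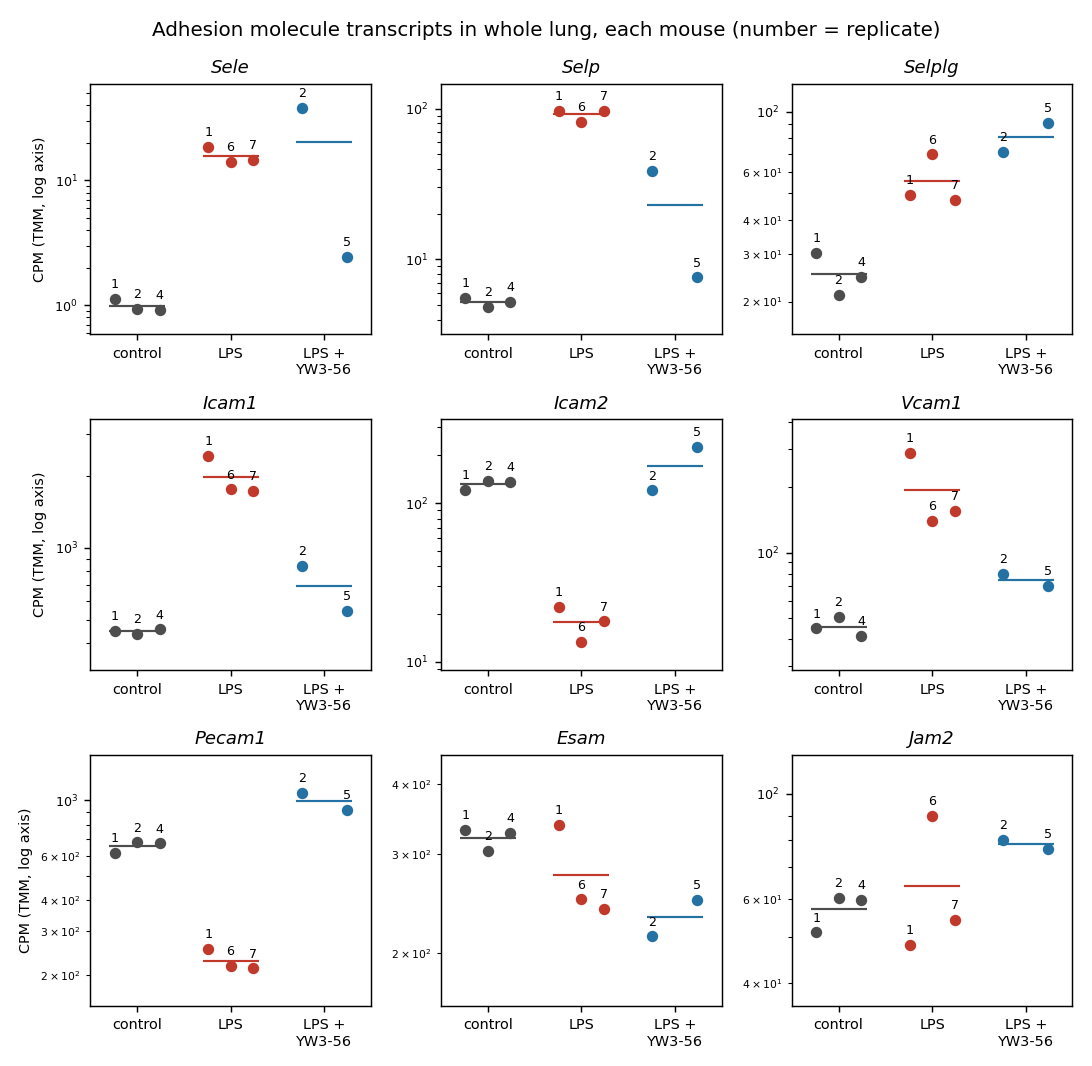
CPM of each adhesion gene (vertical log axis) in each mouse, with 1 panel per gene, points for single mice marked by replicate number, and horizontal lines for the mean of each group (3 control, 3 LPS and 2 dual-treated mice). All 3 LPS mice lie above all control mice for Sele, Selp, Selplg, Icam1 and Vcam1 and below them for Icam2 and Pecam1, and the 2 dual-treated mice lie far apart for Sele (38.1 and 2.46 CPM).

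Sele encodes E-selectin, which endothelial cells make after activation. Its level was 1.13, 0.939 and 0.920 CPM in control mice 1, 2 and 4, from 20 to 23 counts each. It was 18.5, 14.1 and 14.5 CPM in LPS mice 1, 6 and 7, and 38.1 and 2.46 CPM in dual-treated mice 2 and 5. All LPS mice were above all control mice, while dual-treated mouse 2 was above every LPS mouse and dual-treated mouse 5 was below every LPS mouse. Sele rose 15.7-fold in LPS against control mice (log2 fold change 3.97 with SE 0.819, edgeR adjusted p = 0.00196). In dual-treated against LPS mice the log2 fold change was 0.37 with a 95% interval of -1.28 to 2.02 (edgeR adjusted p = 0.683). That value rested on which dual-treated mouse was kept, since it was -2.69 without mouse 2 (edgeR adjusted p = 0.000114) and 1.26 without mouse 5 (edgeR adjusted p = 0.00102), with the lone mouse taken to vary like the other groups. Without LPS mice 6 and 7 Sele was 18.5-fold higher in LPS than in control mice, and the log2 fold change in dual-treated against LPS mice was 0.13. Over all alternatives run, the adjusted p of this difference between dual-treated and LPS mice ranged from 0.000114 to 0.932.

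Selp encodes P-selectin, which endothelial cells and platelets store and bring to the surface on activation. Its level was 5.53, 4.83 and 5.24 CPM in control mice, 96.9, 82.1 and 96.1 CPM in LPS mice 1, 6 and 7, and 38.6 and 7.60 CPM in dual-treated mice 2 and 5. No group overlapped another: the dual-treated mice lay between the control and the LPS mice, with mouse 5 close to the controls. Selp rose 17.6-fold in LPS against control mice (log2 fold change 4.14 with SE 0.487, edgeR adjusted p = 5.70e-05). It was 3.97-fold lower in dual-treated than in LPS mice (log2 fold change -1.99 with SE 0.5, edgeR adjusted p = 0.00726), and the log2 fold change was -3.62 without dual-treated mouse 2 and -1.27 without dual-treated mouse 5. Without LPS mice 6 and 7 Selp was 18.7-fold higher in LPS than in control mice and 4.22-fold lower in dual-treated than in LPS mice.

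The distance between the dual-treated mice was large for both selectins. The higher value was 15.5 times the lower for Sele and 5.08 times for Selp, and mouse 2 was the higher in both. Among 12163 tested genes with a mean of at least 5 CPM, 21 had a larger ratio between these mice than Sele and 53 a larger one than Selp, and the median ratio was 1.14. Icam2 went the other way, with mouse 5 at 1.87 times mouse 2, and Icam1 was 1.54 times higher in mouse 2. The remaining members, Selplg, Vcam1, Pecam1, Esam and Jam2, differed by 1.05 to 1.27 times.

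Because platelets carry Selp, 8 platelet markers were read beside it. Their summed CPM was 92.9, 65.0 and 137 in control mice 1, 2 and 4, 243, 169 and 134 in LPS mice 1, 6 and 7, and 76.8 and 139 in dual-treated mice 2 and 5. Between the dual-treated mice, mouse 2 had the higher Selp level and the lower platelet marker sum. In LPS against control mice 4 of the 7 tested markers were called higher, in dual-treated against LPS mice 5 were called lower, and in dual-treated against control mice edgeR called only Pf4, which was higher, where DESeq2 called 1 higher and 2 lower. The most abundant by its mean over the 8 libraries was Itga2b, an integrin subunit of platelets, at 24 to 52.6 CPM in control, 65.5 to 102 CPM in LPS, and 18.2 and 50.6 CPM in dual-treated mice, and Gp1bb had no count in any library. With scaling by library size alone no platelet marker was called in LPS against control mice, where 2 reached an unadjusted p under 0.05. That scaling called 1 platelet marker higher and 3 lower in dual-treated against LPS mice. The part of platelets in the Selp result was not tested.

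Selplg encodes PSGL-1, the ligand that leukocytes present to the selectins. Its level was 30.2, 21.2 and 24.6 CPM in control mice, 49.4, 69.6 and 47.4 CPM in LPS mice, and 71.1 and 90.6 CPM in dual-treated mice. The groups did not overlap, and the dual-treated mice were the highest, although LPS mouse 6 lay just below dual-treated mouse 2. Selplg was 2.19-fold higher in LPS than in control mice (log2 fold change 1.13 with SE 0.184, edgeR adjusted p = 0.000459). It was 1.46-fold higher in dual-treated than in LPS mice (log2 fold change 0.54 with SE 0.198, edgeR adjusted p = 0.0384). That call was lost without control mouse 4 (adjusted p = 0.0768), LPS mouse 1 (0.1), LPS mouse 7 (0.108) or dual-treated mouse 5 (0.301), each an edgeR adjusted p. It was also lost with RLE factors (edgeR adjusted p = 0.058) and with only the 2 groups compared (0.065). Selplg was 1.96-fold higher in LPS than in control mice, and 1.63-fold higher in dual-treated than in LPS mice, when LPS mice 6 and 7 were left out.

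Leukocyte markers moved with Selplg. Summed over 6 genes they were at 481, 415 and 454 CPM in control mice, 955, 1043 and 717 CPM in LPS mice, and 1001 and 1392 CPM in dual-treated mice 2 and 5. All 6 were called higher in dual-treated than in control mice, and 5 of 6 in LPS than in control mice. In dual-treated against LPS mice 3 were called higher and 1 lower, and the actin bundler gene Lcp1, the most abundant by its mean over the 8 libraries, was at 151 to 211 CPM in LPS and 249 and 367 CPM in dual-treated mice. All 7 neutrophil markers were called higher in LPS than in control mice, with summed CPM of 118 to 214 in control, 1843 to 2948 in LPS, and 1715 and 2387 in dual-treated mice, and S100a9 was the most abundant at 1183 to 1856 CPM in LPS mice. Ly6g, a neutrophil surface marker, was at 10.1, 26.7 and 11.5 CPM in LPS mice but at 0.908 and 3.86 CPM in dual-treated mice. In dual-treated mice 6 of 7 neutrophil markers were called higher than in control mice, and 4 higher and 1 lower than in LPS mice. Of 7 monocyte and macrophage markers 1 was called higher and 3 lower in LPS against control mice, 6 were called higher in dual-treated than in LPS mice and 6 than in control mice, and their summed CPM was 166 to 261 in LPS mice and 553 and 670 in dual-treated mice, with Csf1r the most abundant by its mean over the 8 libraries. In bulk lung, more or fewer cells of a type and more or less RNA per cell cannot be told apart, and the part of leukocyte numbers in the Selplg result was not tested.

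Icam1 encodes the ligand of the leukocyte beta-2 integrins, and endothelial, epithelial and immune cells can all make it. Its level was 450, 439 and 457 CPM in control mice, 2428, 1755 and 1736 CPM in LPS mice 1, 6 and 7, and 842 and 546 CPM in dual-treated mice 2 and 5. Each dual-treated mouse lay above every control mouse and below every LPS mouse. Icam1 rose 4.40-fold in LPS against control mice (log2 fold change 2.14 with SE 0.194, edgeR adjusted p = 1.14e-05) and was 2.84-fold lower in dual-treated than in LPS mice (log2 fold change -1.51 with SE 0.219, edgeR adjusted p = 0.000329). These values became 5.43-fold higher and 3.51-fold lower without LPS mice 6 and 7.

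Vcam1 encodes the ligand of the integrin made from Itga4 and Itgb1. Its level was 44.6, 50.4 and 41.1 CPM in control mice, 288, 140 and 156 CPM in LPS mice 1, 6 and 7, and 79.4 and 70.2 CPM in dual-treated mice 2 and 5. The groups did not overlap and stood in the same order as for Icam1, and LPS mouse 1 was 2.06 times LPS mouse 6, the widest spread of any member within the LPS mice. Vcam1 rose 4.29-fold in LPS against control mice (log2 fold change 2.10 with SE 0.250, edgeR adjusted p = 6.08e-05) and was 2.60-fold lower in dual-treated than in LPS mice (log2 fold change -1.38 with SE 0.280, edgeR adjusted p = 0.00230). Without LPS mice 6 and 7 its fold change in LPS against control mice was 6.37 (edgeR adjusted p = 1.38e-05), and in dual-treated against LPS mice Vcam1 was 3.87-fold lower (edgeR adjusted p = 0.000104).

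Icam2 encodes an ICAM that resting endothelium carries without induction, and it moved the opposite way to Icam1. Its level was 122, 138 and 136 CPM in control mice, 22.2, 13.3 and 18.0 CPM in LPS mice, and 120 and 225 CPM in dual-treated mice 2 and 5. All LPS mice were far below the others, dual-treated mouse 2 was just below the control mice, and mouse 5 was above them all. Icam2 was 7.39-fold lower in LPS than in control mice (log2 fold change -2.88 with SE 0.249, edgeR adjusted p = 8.64e-06) and 9.66-fold higher in dual-treated than in LPS mice (log2 fold change 3.27 with SE 0.265, edgeR adjusted p = 1.34e-05). Icam2 was 5.91-fold lower and 7.73-fold higher in these comparisons without LPS mice 6 and 7. Between dual-treated and control mice the log2 fold change was 0.39 with a 95% interval of -0.18 to 0.95, and it was -0.16 without dual-treated mouse 5.

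Pecam1 encodes CD31, which sits at endothelial junctions and also on platelets and leukocytes. Its level was 618, 679 and 672 CPM in control mice, 254, 218 and 213 CPM in LPS mice, and 1073 and 912 CPM in dual-treated mice. No group overlapped another, and the dual-treated mice were above the controls. Pecam1 was 2.88-fold lower in LPS than in control mice (log2 fold change -1.52 with SE 0.120, edgeR adjusted p = 5.30e-06) and 4.35-fold higher in dual-treated than in LPS mice (log2 fold change 2.12 with SE 0.131, edgeR adjusted p = 4.67e-06). The corresponding values of Pecam1 without LPS mice 6 and 7 were 2.57-fold lower and 3.89-fold higher.

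Esam encodes an adhesion molecule of endothelial tight junctions and platelets. Its level was 332, 304 and 328 CPM in control mice, 339, 249 and 240 CPM in LPS mice 1, 6 and 7, and 214 and 249 CPM in dual-treated mice. LPS mouse 1 lay above every control mouse and LPS mice 6 and 7 below them, so these groups overlapped. The log2 fold change was -0.22 in LPS against control mice, with a 95% interval of -0.54 to 0.10, and -0.25 in dual-treated against LPS mice, with an interval of -0.61 to 0.11. Without LPS mice 6 and 7 the first was 0.08 (edgeR adjusted p = 0.623) and the second -0.56 (edgeR adjusted p = 0.0137). Without LPS mouse 1 the first was -0.39 (edgeR adjusted p = 0.0134).

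Jam2 encodes a junctional molecule of endothelium that binds JAM family proteins and integrins on leukocytes. Its level was 51.1, 60.3 and 59.9 CPM in control mice, 48.0, 89.9 and 54.2 CPM in LPS mice 1, 6 and 7, and 80.0 and 76.5 CPM in dual-treated mice. LPS mouse 6 was the highest of all and LPS mouse 1 the lowest, so the LPS mice spanned both other groups. The log2 fold change was 0.17 in LPS against control mice, with a 95% interval of -0.29 to 0.62, and 0.29 in dual-treated against LPS mice, with an interval of -0.22 to 0.80. Without LPS mouse 6 they were -0.15 (edgeR adjusted p = 0.263) and 0.61 (edgeR adjusted p = 0.00325), and without LPS mice 6 and 7 together they were -0.24 (edgeR adjusted p = 0.148) and 0.70 (edgeR adjusted p = 0.00506).

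The called members kept their directions under each scaling tried, in LPS against control and in dual-treated against LPS mice. With library size alone in place of TMM factors, the log2 fold changes of all tested genes moved by a median of -0.29 in LPS against control mice and 0.33 in dual-treated against LPS mice, and all 7 and all 6 members kept their calls and directions. With library size alone 23.4% of all tested genes were called higher and 42.2% lower in LPS against control mice, and 42.5% and 17.4% in dual-treated against LPS mice. Esam then had a log2 fold change of -0.52 in LPS against control mice (edgeR adjusted p = 0.00255) and 0.08 in dual-treated against LPS mice (edgeR adjusted p = 0.583), and Jam2 one of -0.11 in LPS against control mice (edgeR adjusted p = 0.673). With RLE factors all 7 were kept in the first comparison and 5 of 6 in the second, where Selplg lost its call (log2 fold change 0.49, edgeR adjusted p = 0.058).

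**Figure D2:**
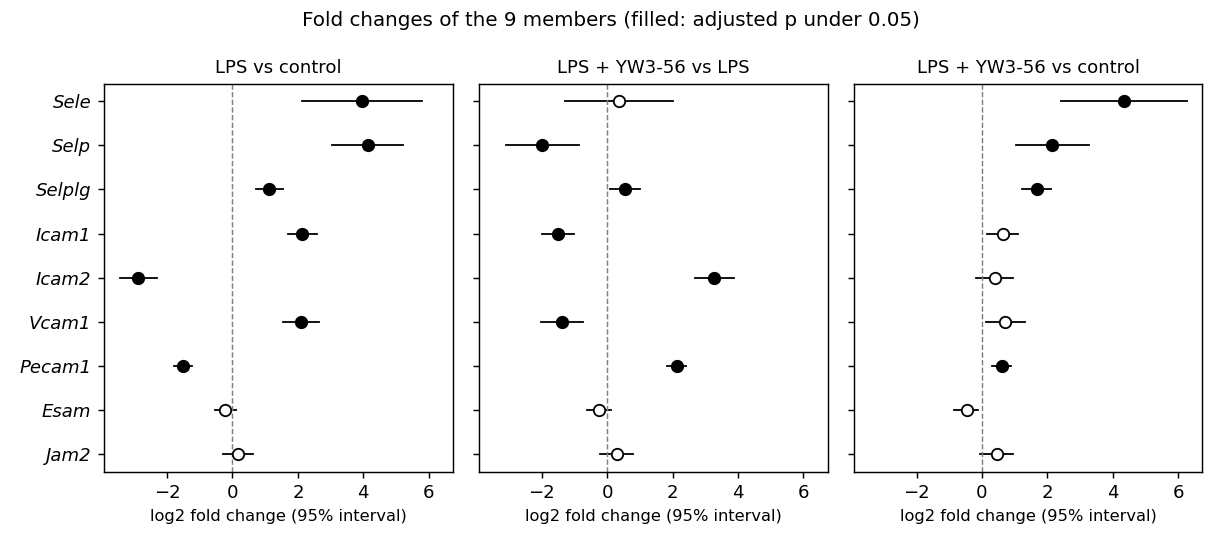
Log2 fold change of each adhesion gene (horizontal axis) in the 3 comparisons, with bars for the 95% interval of edgeR's quasi-likelihood fit over 8 libraries and filled points for an adjusted p under 0.05. Selp, Icam1 and Vcam1 lie to the right in LPS against control mice and to the left in dual-treated against LPS mice, Icam2 and Pecam1 the reverse, and the interval of Sele in dual-treated against LPS mice runs from -1.28 to 2.02.

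Between dual-treated and control mice, Sele, Selp, Selplg and Pecam1 were called higher. Their fold changes were 20.3 for Sele (edgeR adjusted p = 0.00939), 4.43 for Selp (0.0186), 3.19 for Selplg (0.000743) and 1.51 for Pecam1 (0.0143). The Sele value came mainly from dual-treated mouse 2, and without it the log2 fold change was 1.27 against 4.34 with both mice, and without dual-treated mouse 5 it was 5.22. The calls of Selp and Pecam1 were fragile. Selp lost its call without control mouse 1 (edgeR adjusted p = 0.0579), control mouse 2 (0.0673), control mouse 4 (0.0664) or dual-treated mouse 2 (0.0914). Its log2 fold change was 2.15 with all mice, 2.19, 2.10 and 2.13 without the control mice in turn, and 0.52 without dual-treated mouse 2. Without dual-treated mouse 5 the log2 fold change of Selp was 2.86 (edgeR adjusted p = 1.14e-05). Pecam1 lost its call without control mouse 1 (edgeR adjusted p = 0.0613), control mouse 2 (0.0526) or dual-treated mouse 2 (0.106), at log2 fold changes of 0.55, 0.62 and 0.44 against 0.60 with all mice.

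The other 5 members were not called in this comparison, although both dual-treated mice lay above all control mice for Icam1, Vcam1 and Jam2 and below them for Esam. The log2 fold changes and 95% intervals were 0.63 (0.17 to 1.09) for Icam1, 0.72 (0.12 to 1.32) for Vcam1, 0.46 (-0.05 to 0.96) for Jam2 and -0.47 (-0.84 to -0.11) for Esam. The call of these members depended on the fit. DESeq2 called Icam1 (adjusted p = 0.0163), Vcam1 (0.0391) and Esam (0.0201) where edgeR gave 0.0673, 0.0979 and 0.0781, but not Jam2 (0.208, against 0.209 in edgeR). Without LPS mice 6 and 7 edgeR called all 4, with adjusted p of 0.0424 for Icam1, 0.00574 for Vcam1, 0.0228 for Esam and 0.0199 for Jam2.

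Leaving out a single library also moved them. Without LPS mouse 1, edgeR's adjusted p was 0.0336 for Icam1, 0.00397 for Vcam1 and 0.0196 for Esam. Without LPS mouse 6 it was 0.0263 for Jam2, and without dual-treated mouse 5 it was 0.0127 for Icam1, at a log2 fold change of 0.88. Leaving out dual-treated mouse 2 moved them the other way, to adjusted p of 0.52 for Icam1 (log2 fold change 0.25), 0.344 for Vcam1, 0.282 for Esam and 0.531 for Jam2 in edgeR.

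Endothelial markers were read in the same libraries, since a change per library can follow the amount of endothelial RNA. All 12 markers had counts in the lungs, and their sum was 5103, 5583 and 5848 CPM in control mice, 2923, 2288 and 2475 CPM in LPS mice, and 4341 and 4795 CPM in dual-treated mice. In LPS against control mice 8 of 12 were called lower and 1 higher, with a median log2 fold change of -2.18, and in dual-treated against LPS mice 8 were called higher and 1 lower, with a median of 1.52. In dual-treated against control mice edgeR called only Kdr, a VEGF receptor gene, which was lower, and DESeq2 called 3 lower.

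The list did not move as one. Ramp2, a co-receptor for adrenomedullin, was at 515 to 547 CPM in control mice, 31.1 to 37.8 CPM in LPS mice, and 462 and 520 CPM in dual-treated mice. Tek, Kdr, Tie1, Egfl7, Eng, Sox17 and Vwf also fell with LPS. Cdh5, the gene of the junctional VE-cadherin and the most abundant of the list by its mean over the libraries, was at 590 to 737 CPM in control mice, 642 to 938 CPM in LPS mice, and 510 and 590 CPM in dual-treated mice. Cdh5, Cldn5 and Flt1 were not called in LPS against control mice with TMM factors, and Robo4 rose. With library size alone 10 of the 12 markers were called lower and 1 higher in that comparison. Pecam1 and Icam2 thus moved in the direction of Ramp2 and Tek, while with TMM factors Esam stayed without a call as Cdh5 did. The part of endothelial cell number in these results was not tested.

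The members were also set against the mean log2 CPM of the 12 endothelial markers. This shifts all members of a library alike, so their order stayed the same while their distances from 0 changed. The smallest p of an exact two-sided permutation test is 0.1 for 3 mice against 3 and for 3 against 2, so these values are descriptions. Relative to the markers, Icam1 was at 0.37, 0.21 and 0.22 log2 units in control mice, 4.29, 4.09 and 3.85 in LPS mice, and 1.60 and 0.72 in dual-treated mice. Pecam1 was at 0.83, 0.84 and 0.78 in control mice, 1.04, 1.08 and 0.83 in LPS mice, and 1.95 and 1.46 in dual-treated mice. On this scale the control and LPS mice overlapped for Pecam1, while Icam2 was still lower in every LPS mouse than in every control mouse, by a mean of -1.21.

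The choice of reference decided several of these values. Relative to Cdh5 alone, the mean difference between LPS and control mice was -1.68 for Pecam1 and -3.06 for Icam2, and 1.96, 1.87, 3.96 and 3.69 for Icam1, Vcam1, Selp and Sele. Esam was 1.46 higher in LPS than in control mice relative to the whole list and -0.39 relative to Cdh5, and Jam2 was 1.81 higher relative to the list and -0.04 relative to Cdh5. In dual-treated against LPS mice, Selplg was at -0.84 relative to the list and 0.97 relative to Cdh5.

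**Figure D3:**
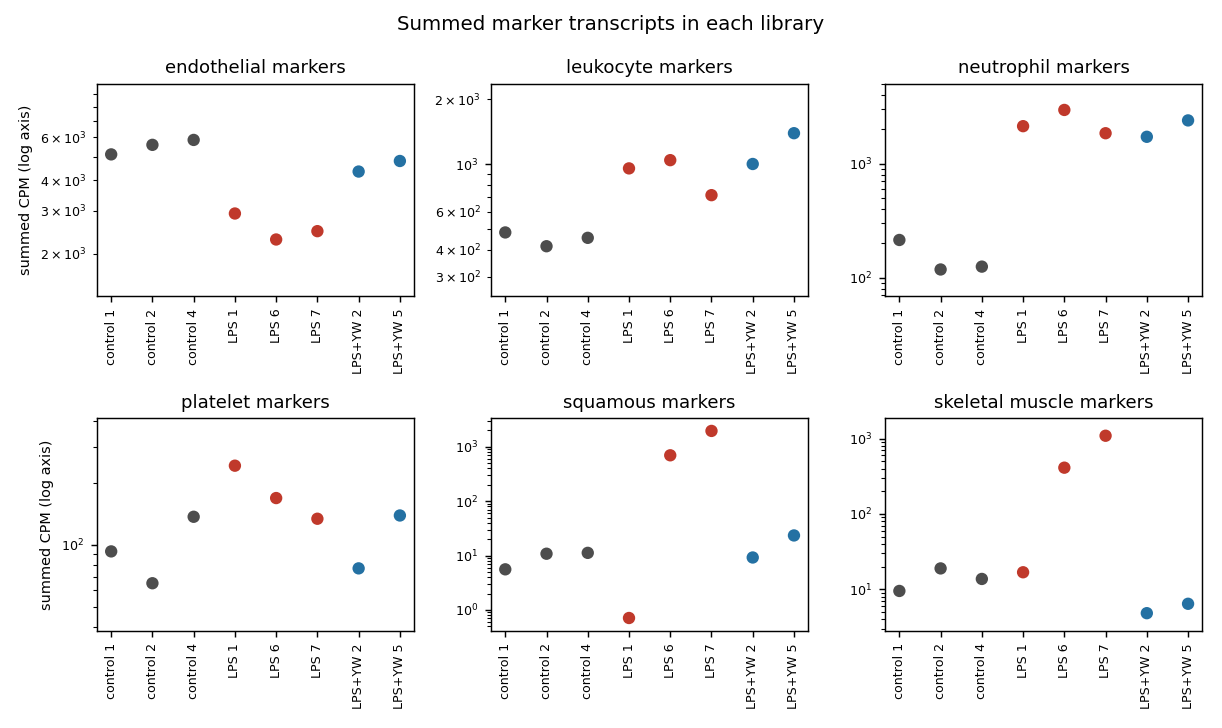
Summed CPM (vertical log axis) of 6 marker lists in each of the 8 libraries, with grey points for control, red for LPS and blue for dual-treated mice. Squamous and skeletal muscle markers are high in LPS mice 6 and 7, endothelial markers are lowest in the 3 LPS mice (2288 to 2923 CPM), and leukocyte and neutrophil markers are higher in all LPS and dual-treated mice than in the control mice.

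Levels of different genes were compared as CPM per kilobase of merged exons, the union of all annotated exons of a gene. This length was 3.045 kb for Esam and 10.002 kb for Pecam1, and the order and shares below depend on it. Mean CPM in control mice was 321 for Esam and 657 for Pecam1, the reverse of their order per kilobase. The lengths of the transcripts present in the lungs were not measured. Per kilobase, Esam stood first in control mice with 105 ± 4.92 (SD, n = 3). Icam1 with 90.3 ± 1.87 and Pecam1 with 65.6 ± 3.35 followed, and no values of these neighbours overlapped. Icam2 followed with 17.8 ± 1.21 CPM per kilobase. Selplg, Jam2 and Vcam1 came next at 5.04 to 5.92 CPM per kilobase and overlapped as neighbours, and Selp and Sele were lowest with 1.18 ± 0.0792 and 0.259 ± 0.0297. In LPS mice Icam1 stood first with 397 ± 79.3 CPM per kilobase (SD, n = 3) and Icam2 last with 2.41 ± 0.6.

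The makeup of the summed level shifted with it. Icam1 held 30.2 to 30.6% of the 9 genes' summed CPM per kilobase in control mice, 67.8 to 69.5% in LPS mice, and 40.9 and 31.3% in dual-treated mice 2 and 5. Pecam1 held 20.9 to 23.3% in control mice, 3.61 to 4.18% in LPS mice, and 25.9 and 26.0% in dual-treated mice. In LPS mice Pecam1, Vcam1 and Selp, at means of 22.8, 21.6 and 20.8 CPM per kilobase, overlapped as neighbours in the order. In dual-treated mice the order began with Icam1, Pecam1 and Esam at means of 140, 99.3 and 76.0 CPM per kilobase, without overlap between neighbours, and ended with Sele and Selp, although in mouse 2 both (9.94 and 8.75) were above Jam2 (7.23).

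The counter-receptors on leukocytes were followed through 12 genes. In LPS against control mice 7 were called higher (32.6% of all tested genes) and the other 5 were not called, with a median log2 fold change of 1.29. Between dual-treated and LPS mice 4 were called higher (31.7% of all tested genes) and 3 lower (27.4%). Itgb2, the beta-2 integrin subunit that binds Icam1, was at 42.0 to 62.3 CPM in control, 101 to 145 CPM in LPS, and 198 and 267 CPM in dual-treated mice, and Itgal, Itgam and Spn were the other genes called higher. Cd44, a hyaluronan receptor that also binds E-selectin, was among those called lower, at 242 to 342 CPM in LPS and 145 and 151 CPM in dual-treated mice. Against control mice, the dual-treated mice had 8 of 12 called higher, with a median of 1.93.

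The enzymes that build selectin ligands moved in both directions. Of 11 genes, 4 (36.4%) were called higher and 5 (45.5%) lower in LPS against control mice, where 32.6% and 33.9% of all tested genes were. In dual-treated against LPS mice 5 (45.5%) were called higher and 4 (36.4%) lower, beside 31.7% and 27.4% of all tested genes. B4galt1, a galactosyltransferase, was at 113 to 119 CPM in control, 298 to 361 CPM in LPS, and 163 and 129 CPM in dual-treated mice. Chst2, a sulfotransferase, was at 17.7 to 26.5 CPM in control, 2.08 to 3.09 CPM in LPS, and 4.49 and 11.6 CPM in dual-treated mice. Fut4 was called higher and Chst2 lower in dual-treated than in control mice.

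Of 15 other vascular adhesion genes, 12 were tested. Cd99 matched no identifier, Icam4 had no count in any library, and Glycam1 was below the filter. In LPS against control mice 5 were called higher (32.6% of all tested genes) and 5 lower (33.9%). In dual-treated against LPS mice 4 were called higher (31.7% of all tested genes) and 5 lower (27.4%). Scaling by library size alone gave 2 higher and 5 lower in the first comparison and 5 higher and 1 lower in the second. Podxl, a sialomucin of the vessel lining, was at 401 to 449 CPM in control, 123 to 211 CPM in LPS, and 376 and 591 CPM in dual-treated mice, so it was lowest in the LPS mice as Icam2 and Pecam1 were. Cd34, another sialomucin, was at 106 to 126 CPM in control, 172 to 227 CPM in LPS, and 446 and 253 CPM in dual-treated mice. Cd34 was called higher, and Cd99l2 and Alcam lower, in dual-treated than in control mice.

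A list of 13 held genes of the signals known to induce adhesion molecules. It also held Nfkbia and Tnfaip3, feedback inhibitors of NF-kappa B that restrain these signals. In LPS against control mice 12 of the 13 were called higher and 1 lower, with a median log2 fold change of 2.23. In dual-treated against LPS mice 11 were called lower and 1 higher, with a median of -1.16. Nfkbia, the inhibitor of NF-kappa B and itself one of its targets, was at 161 to 177 CPM in control, 1263 to 1743 CPM in LPS, and 463 and 300 CPM in dual-treated mice. Irf1, an interferon-regulated transcription factor gene, was at 124 to 146 CPM in control, 715 to 1122 CPM in LPS, and 110 and 120 CPM in dual-treated mice. Tlr4, the receptor for LPS, was the gene called lower in the first comparison (edgeR adjusted p = 0.0438) and higher in the second, and DESeq2 called none of the 13 lower in the first. In dual-treated against control mice Il1b, Relb, Nfkbia and Tnfaip3 were called higher.

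Erg, an endothelial transcription factor known to keep Icam1 and Vcam1 low in resting vessels, was at 154, 148 and 144 CPM in control mice, 11.1, 16.5 and 8.60 CPM in LPS mice, and 88.9 and 105 CPM in dual-treated mice. It fell by 3.62 on the log2 scale in LPS against control mice (edgeR adjusted p = 1.17e-06) and dual-treated mice exceeded LPS mice by a log2 fold change of 3.00 (edgeR adjusted p = 8.14e-06). It was listed with Klf2, Klf4 and Nos3 as endothelial genes that restrain inflammation. Klf2 rose with LPS, to 464 to 588 CPM from 235 to 262 CPM, and was lower in dual-treated than in LPS mice. Klf4 and Nos3 were not called in any comparison by edgeR with TMM factors. Scaling by library size alone called 2 of the 4 genes higher and 1 lower in dual-treated against LPS mice. None of the 4 was called by edgeR between dual-treated and control mice, where 3 had an unadjusted p under 0.05, DESeq2 called 2, and edgeR with scaling by library size alone called 1.

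Of 10 sheddases and proteins that link ICAM tails to actin, 5 were called higher and 2 lower in LPS against control mice. The shares of all tested genes were 32.6% and 33.9%. In dual-treated against LPS mice 2 were called higher (31.7% of all tested genes) and 1 lower (27.4%). Scaling by library size alone gave 2 higher and 3 lower in the first comparison and 5 higher and none lower in the second. Adam17, a protease that cleaves selectins and adhesion molecules, was at 78.1 to 85.7 CPM in control, 73.8 to 95.6 CPM in LPS, and 85.3 and 99.5 CPM in dual-treated mice, and its groups overlapped. In dual-treated against control mice Adam8, Mmp9 and Rhog were called higher and Rdx lower.

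Other cell types of the lung were followed through their own markers. Of all tested genes, 32.6% were called higher and 33.9% lower in LPS against control mice. These shares were 31.7% and 27.4% in dual-treated against LPS mice, and 9.13% and 7.02% in dual-treated against control mice. Of 8 epithelial markers 3 were called higher and 3 lower in LPS against control mice, and 4 were called lower in dual-treated against LPS mice and 2 against control mice. Their sum was led by Scgb1a1 and stood at 62832 to 69104 CPM in control, 67358 to 90320 CPM in LPS, and 36107 and 50186 CPM in dual-treated mice. With LPS, Epcam, Cdh1 and Scgb1a1 were called higher, Sftpc, Sftpb and Lamp3 lower, and Ager and Hopx were not called. Cdh1 was at 296 to 301 CPM in control, 722 to 954 CPM in LPS, and 203 and 222 CPM in dual-treated mice. Sftpc was at 19567 to 24535 CPM in control, 8322 to 16566 CPM in LPS, and 8528 and 17890 CPM in dual-treated mice. Of 7 stromal markers 2 were called higher and 3 lower in LPS against control mice, and 4 higher and 1 lower in dual-treated against LPS mice. Scaling by library size alone gave 1 stromal marker higher and 5 lower, and 3 epithelial markers higher and 5 lower, in LPS against control mice, and 1 epithelial marker higher and 3 lower in dual-treated against LPS mice. The 5 red cell markers had no call in LPS against control mice in edgeR or DESeq2, with no unadjusted p under 0.05, while scaling by library size alone called 1 lower, and all were called lower in dual-treated mice against both other groups, with sums of 1468 to 3908 CPM in control and LPS mice and of 426 and 381 CPM in dual-treated mice. Of 4 lymphocyte markers 1 was called lower in LPS against control mice and 1 higher in dual-treated against LPS mice. For the first of these, scaling by library size alone called 3 lymphocyte markers lower, and DESeq2 called 1 higher and 1 lower. Between dual-treated and control mice no stromal or lymphocyte marker was called by edgeR, where 1 and 2 had an unadjusted p under 0.05 and DESeq2 called 1 in each list. The part of these cell types in the results on Icam1 and the other members was not tested.

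For each member the 3 genes of nearest pattern were found, by the root mean square difference over the 8 libraries between log2 CPM values centred on their own mean, among 11805 genes with a mean of at least 5 CPM, predicted genes left out. For Icam1 these were Vdr, Ogfr and Herc6, at distances of 0.08 to 0.10 log2 units, and for Vcam1 they were Etv6, Emp1 and Slc7a1, each at 0.18. Among the members themselves Icam1 and Vcam1 were the nearest pair, at a distance of 0.22, followed by Esam and Jam2 at 0.51. For Selplg the nearest were Apbb1ip, Cotl1 and Gmfg, at 0.05 to 0.12.

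Sox17, a transcription factor gene of endothelium, was among the 3 nearest to Icam2 at 0.23 log2 units, with Dhdh at 0.19 and Zfp950 at 0.24. Gimap4, Cklf and Rinl were nearest to Pecam1, each at 0.12. Sh3rf1, Patj and Sod1 were nearest to Esam at 0.06 to 0.08, and Dnajc4, Znhit2 and Exosc8 to Jam2 at 0.16 to 0.17. The selectins had no near neighbour at such distances: Acr, Nek2 and Pigr lay 0.29 to 0.35 from Selp, and the nearest to Sele was Tubb3 at 0.54.

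Sele and Selp lie near each other on chromosome 1 (GRCm39, plus strand), with Sele at chr1:163867401-163886055 and Selp at chr1:163942833-163977595. Icam1 lies at chr9:20926672-20940113 on the plus strand, followed by Icam4 and by Icam5 at chr9:20943050-20950336. Icam5 was at 0.587 to 1.10 CPM in control, 1.16 to 3.26 CPM in LPS, and 0.363 and 0.439 CPM in dual-treated mice. Of the remaining members, Vcam1 lies at chr3:115903598-115923355, Selplg at chr5:113956597-113970705, Esam at chr9:37439344-37449615, Jam2 at chr16:84570764-84623269, and Icam2 and Pecam1 at chr11:106263312-106278943 and chr11:106543689-106641454.

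Some members share exon bases with a gene on the opposite strand, and whether counting used strand is not given in the sources used here. Icam2 shares 1818 exon bases with Prr29, which had 171 to 206 counts in control, 90 to 98 in LPS, and 257 and 243 in dual-treated libraries, against 231 to 375 counts for Icam2 in LPS libraries. Jam2 shares 485 exon bases with Atp5pf, a subunit gene of the mitochondrial ATP synthase, which had 1476 to 2103 counts per library against 809 to 1763 for Jam2. Reads of these pairs cannot be told apart without strand. The partners of Selp, Icam1 and Vcam1, the long noncoding genes Gm16548, Gm47079 and Gm43109, had at most 19, 13 and 1 counts in any library.

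Sele, Selp and Icam1 rose together with LPS, and these 3 of the 9 members had an entry in a table of RefSeq promoters (build GRCm38.p6), while Selplg, Icam2, Vcam1, Pecam1, Esam and Jam2 had none. The bases before each RefSeq start matched GRCm39 exactly at 1 place: chr1:163875553-163875802 for Sele, chr1:163942583-163942832 for Selp and chr9:20926986-20927235 for Icam1, all on the plus strand. The Selp stretch lies in no annotated gene, the Sele stretch lies inside the Sele gene with its last 63 bases in an annotated exon and also inside the minus-strand gene Gm57120, outside its exons, and the Icam1 stretch lies wholly in the first exon of annotated Icam1 transcripts and is not shown. Both strands of all 32851 stretches of this length were searched for 4 motifs. The kappa B consensus, present in 3.90% of the stretches, matched none of the 3 genes. The shorter and looser GGNNNTTCC, chosen after the sequences were seen and present in 15.7%, matched 1 place in Sele, 1 in Selp and 2 in Icam1. TGANTCA, the form bound by AP-1 proteins, was present in 6.75% and matched 1 place each in Sele and Selp, and TATAAA, present in 12.4%, matched 1 place in Sele, 49 to 44 bases before the RefSeq start. No match overlapped another. The 2 selectin stretches are shown because these genes changed most with LPS and split most between the dual-treated mice, with capitals for matches to GGNNNTTCC or its complement and to TGANTCA.
Sele, chr1:163875553-163875739: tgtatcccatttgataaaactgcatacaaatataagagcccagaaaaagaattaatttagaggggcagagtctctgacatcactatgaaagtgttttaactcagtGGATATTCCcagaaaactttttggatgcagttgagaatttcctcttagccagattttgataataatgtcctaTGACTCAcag
Selp, chr1:163942583-163942832: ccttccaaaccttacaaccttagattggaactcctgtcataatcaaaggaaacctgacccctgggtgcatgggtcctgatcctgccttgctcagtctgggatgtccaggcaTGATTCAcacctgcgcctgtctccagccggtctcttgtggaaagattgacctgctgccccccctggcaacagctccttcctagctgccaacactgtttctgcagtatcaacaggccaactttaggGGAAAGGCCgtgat
In Sele the match to GGNNNTTCC begins 145 bases and that to TGANTCA 73 bases before the RefSeq start. In Selp the match to TGANTCA begins 139 bases before the start, and GGAAAGGCC, which matches GGNNNTTCC on the other strand, 14 bases before it. In Icam1 the matches were GGAAATTCC, beginning 153 bases before the RefSeq start, and GGAAATACC, which matches on the other strand, 84 bases before it. These matches describe the letters of the reference sequence, and binding was not measured.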

How the data were processed

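The deposited files hold raw counts per Ensembl gene for 8 lung libraries of paired reads, made by the authors with FastQC 0.11.9, Trim Galore, HISAT2 2.2.1 and featureCounts 2.0.1, as their processing notes and methods name them. The build was GRCm39, and the annotation release, strand setting and treatment of multi-mapped reads are not given in the sources used here. Symbols and positions came from GENCODE M39, which named 54749 of 55416 identifiers. Counts were fitted with edgeR 4.0.16 in R 4.3.3 (TMM factors, filterByExpr by group, 1 group factor over all 8 libraries, 5 residual degrees of freedom), and DESeq2 1.42.0 was an alternative. Steps were tested on simulated data. The prior count for log2 CPM was 2. Alternatives were other scalings, filters, call rules, only the 2 groups compared, and each library left out. Named genes were the members and genes taken from the lists, from the 3 of nearest pattern per member (excluding predicted genes), and from genomic neighbours. The members and lists were chosen with earlier results of these data known.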

Additional observations from a re-analysis of the deposited data

How the results depend on the processing

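Over all members, comparisons and alternatives, 408 of 459 fold changes kept their direction and their side of the threshold. Of the others, 17 lost the call, 27 gained one and 7 changed direction. The alternative call rules reuse the main fold changes, so direction could not change under them. Some fits left out a library of the group that is not in the comparison. The count of kept values is therefore partly set by the choice of alternatives. The number of members called in LPS against control mice (7) and in dual-treated against LPS mice (6) stayed within 1.5 times under every alternative run, leaving out each library included. The count in dual-treated against control mice was 4 and moved the most, to 7 with DESeq2 or without a filter on low counts, 8 with only the 2 groups compared, and 8 without LPS mice 6 and 7. Leaving out 1 library at a time it ran from 2 to 7, and the cause of these shifts was not tested. Direction changed for Sele in dual-treated against LPS mice (-2.69 without dual-treated mouse 2, with leave-one-out values up to 1.26), Icam2 in dual-treated against control mice (-0.16 without dual-treated mouse 5, up to 0.74), Esam (0.083 in LPS against control mice without LPS mice 6 and 7, 0.084 in dual-treated against LPS mice with library size alone) and Jam2 in LPS against control mice (-0.11 with library size alone, -0.24 without LPS mice 6 and 7, and leave-one-out values from -0.15 to 0.34), all as log2 fold changes. Of these, only Sele was called in the changed direction. No paired analysis was made, since the groups hold different mice and a number shared between groups does not mark a pair. With 2 dual-treated mice, and few counts of Sele in control mice (20 to 23), the size of the selectin changes is the least certain in the comparisons with dual-treated mice.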
